A study of Mus musculus with 6 samples.

Results

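De novo lipogenesis genes were examined in 3T3-L1 adipocytes, as the 10 genes named *Slc25a1*, *Acly*, *Me1*, *Acaca*, *Acacb*, *Fasn*, *Thrsp*, *Mid1ip1*, *Srebf1* and *Mlxipl*. They were taken by gene symbol for their place in the pathway, with earlier results of these data known. The count tables held 24421 symbols, and all 10 genes had enough reads to be among the 12766 tested. 3T3-L1 is an established mouse cell line (labelled as strain C57BL/6) that can be turned into adipocytes in culture. All cells were differentiated with insulin (870 nM) and TZD (5 µM), a class of drug that activates the adipocyte nuclear receptor PPARγ, with dexamethasone (1 µM) and IBMX (500 µM) for the first days. On day 7 they received 100 pfu/cell of an adenovirus that carried *LacZ* (AdLacZ, the control) or a codon-optimized mouse *Lmo3* (Ad*Lmo3*), and RNA was taken 72 h later from 3 infections per group. The 3 AdLacZ libraries are the control for the virus, and no uninfected cells were part of the comparison. The question was how LMO3, an adaptor protein built of LIM domains, alters gene expression in mature adipocytes.

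De novo lipogenesis turns surplus carbohydrate into fatty acids. Citrate leaves the mitochondrion through the carrier SLC25A1, ATP citrate lyase (ACLY) splits it into acetyl-CoA and oxaloacetate, the carboxylases ACC1 (*Acaca*) and ACC2 (*Acacb*) make malonyl-CoA, and fatty acid synthase (FASN) builds palmitate from it with NADPH, part of which comes from malic enzyme (ME1). Spot14 (*Thrsp*) and its relative MIG12 (*Mid1ip1*) bind to each other and MIG12 promotes the polymerization of ACC, while SREBP1 (*Srebf1*) and ChREBP (*Mlxipl*) are the transcription factors that couple the pathway to insulin and glucose.

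The libraries held 28035639 to 38332335 gene counts. Single genes were tested in 1 model over all genes (edgeR's quasi-likelihood test, TMM normalization, Benjamini-Hochberg adjustment over 12766 genes), levels are in CPM (counts scaled to the TMM-normalised size of their library), and a gene is called significant at an adjusted p-value under 0.05. The adipocyte identity of the cells was read from 10 markers, whose CPM summed to 20526 to 22541 in AdLacZ and 27167 to 33778 in Ad*Lmo3* libraries. Markers of preadipocytes and fibroblasts summed to 15505 to 19976 and 15363 to 22982 CPM. Most of that sum came from the collagen genes *Col3a1* and *Col1a1* (means of 11379 and 5103 CPM in AdLacZ libraries). The markers were thus not all abundant, as *Cd34* and *Gata2* were at 0.396 and 1.08 CPM there. Macrophage and leukocyte markers summed to at most 5.86 CPM, with *Cd3e* at 0 in all libraries, and hepatocyte markers to at most 1.24 CPM. In such bulk RNA, fewer adipocytes and less RNA per adipocyte cannot be told apart. *Lmo3* itself had 0 counts in 6 of 6 libraries, and the labels could not be checked through it.

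The promoter sequences of 3 genes of the pathway are shown because their transcripts were separated between the groups to different degrees. They are the 250 bases before the RefSeq start (GRCm38.p6), 5′ to 3′ on the strand of the gene, with capitals for the CCAAT box, the GC box (GGGCGG) and the E-box (CACGTG), each searched on both strands. *Slc25a1* is at chr16:17928220-17928469, *Acly* at chr11:100528001-100528250 and *Fasn* at chr11:120824548-120824797, all on the minus strand.
Slc25a1: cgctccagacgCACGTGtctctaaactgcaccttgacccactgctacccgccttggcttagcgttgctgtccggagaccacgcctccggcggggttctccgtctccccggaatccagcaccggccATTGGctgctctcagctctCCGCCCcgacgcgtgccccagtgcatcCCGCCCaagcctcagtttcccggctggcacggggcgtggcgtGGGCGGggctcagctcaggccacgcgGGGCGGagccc
Acly: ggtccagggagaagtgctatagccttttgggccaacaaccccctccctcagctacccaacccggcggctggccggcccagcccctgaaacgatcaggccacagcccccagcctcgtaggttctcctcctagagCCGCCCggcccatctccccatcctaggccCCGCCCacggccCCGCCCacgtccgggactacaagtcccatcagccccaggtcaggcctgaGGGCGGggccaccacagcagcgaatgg
Fasn: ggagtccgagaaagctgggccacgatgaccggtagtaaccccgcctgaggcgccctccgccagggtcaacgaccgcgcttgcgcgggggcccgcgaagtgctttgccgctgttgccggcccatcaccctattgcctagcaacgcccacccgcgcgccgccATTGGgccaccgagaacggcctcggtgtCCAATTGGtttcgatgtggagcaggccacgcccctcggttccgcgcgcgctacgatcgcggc
The *Fasn* promoter held CCAAT boxes, at 90 to 86 and, overlapping each other on opposite strands, at 62 to 58 and 59 to 55 bases before the start. *Acly* had GGGCGG boxes and no CCAAT, and *Slc25a1* had both and an E-box. CCAAT occurs in 33.8%, GGGCGG in 32.7% and CACGTG in 6.02% of the 32851 mouse promoter windows of this length. The sterol response motif TCACNCCAC, present in 1.05% of all windows, was found in 1 of the 14 windows of the 10 genes, at a downstream start of *Mlxipl*. A pair of exact CACGTG boxes spaced by 5 bases, a strict form of the ChREBP site, was found in none of the 14. It occurred in 0 of the 32851 windows, so its absence says nothing about these genes. *Thrsp* had CCAAT boxes at 79 to 75 and 52 to 48 bases before its RefSeq start, inside an exon of a longer GENCODE transcript.

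In the cells that received Ad*Lmo3*, the reads of *Thrsp* and *Fasn* rose, by 3.17-fold and 2.26-fold, and none of the 10 genes fell significantly. Of the others, *Slc25a1*, *Acly*, *Me1* and *Acaca* were higher in every Ad*Lmo3* than in every AdLacZ library, by 1.15- to 1.52-fold, but did not pass the threshold. *Acacb*, *Mid1ip1*, *Srebf1* and *Mlxipl* had overlapping groups. These are 2 of 10 genes, where 4.28% of all tested genes were called, 2.71% (346) higher and 1.57% (201) lower, or 266 higher and 501 lower when libraries were scaled by their totals alone. DESeq2 called 5 of the 10, *Slc25a1*, *Acly*, *Acaca*, *Fasn* and *Thrsp*, where it called 8.55% of its tested genes, with 5.19% higher. The CPM ranges of the groups did not overlap for 6 of the 10 genes, against 26.5% of all tested genes. The estimate was above 0 for 9 of 10, against 50.4% of all tested genes, and the median log2 fold change was 0.37 against 0.00 over all genes.

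**Figure D1:**
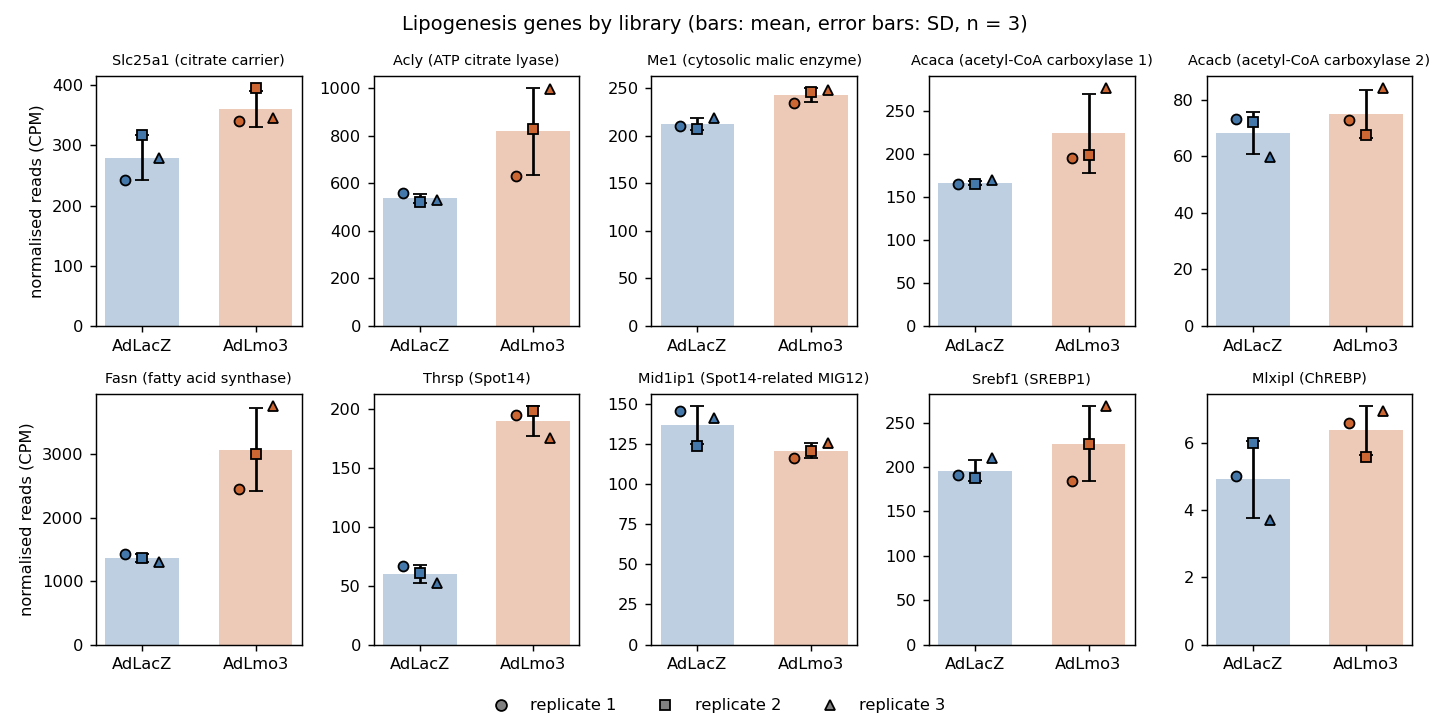
Normalised reads (CPM) of each lipogenesis gene in the 3 AdLacZ (blue) and 3 Ad*Lmo3* (orange) libraries. Bars give the mean, error bars the SD (n = 3) and each point is 1 library. *Fasn* and *Thrsp* stand well apart between the groups, whereas the points of *Mid1ip1*, *Srebf1*, *Acacb* and *Mlxipl* overlap.

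*Thrsp* encodes Spot14, a small nuclear and cytosolic protein that is abundant in lipogenic tissue and responds to thyroid hormone, insulin and glucose. Its level was 66.8, 60.9 and 51.9 CPM in AdLacZ replicates 1, 2 and 3, the order kept for all genes, against 195, 199 and 175 CPM with Ad*Lmo3*. All Ad*Lmo3* libraries were therefore far above all AdLacZ libraries, and the coefficient of variation was 12.5% within AdLacZ and 6.62% within Ad*Lmo3*. *Thrsp* rose by 1.66 on the log2 scale with an SE of 0.103 (edgeR, adjusted p = 0.00110), the 8th largest increase of all tested genes and the 2nd smallest p-value. The 95% interval of the fold was 2.69 to 3.73, and *Thrsp* kept its call in 12 of 12 other settings of the analysis, with an adjusted p of at most 0.0157. *Thrsp* (ENSMUSG00000035686) lies on chromosome 7 of GRCm38 from 97412938 to 97417730 on the minus strand, and no stretch of read length (75 bp) in it is found in another transcript.

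*Mid1ip1* encodes MIG12, the closest relative of Spot14. It was at 146, 124 and 141 CPM in the AdLacZ libraries and at 116, 121 and 126 CPM in the Ad*Lmo3* libraries. AdLacZ replicate 2 lay within the range of the Ad*Lmo3* libraries, and the means were 137 ± 11.7 and 121 ± 4.76 CPM (SD, n = 3 each). The fold was 0.883 with a 95% interval of 0.779 to 1.00 (adjusted p = 0.249, edgeR). *Mid1ip1* (chromosome X from 10715013 to 10719690) shares 20.5% of the read-length stretches of its principal transcript with *Gm14493*, a gene on the opposite strand, and without strand their reads cannot be told apart.

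The balance between both relatives was compared within each library. The log2 ratio of *Thrsp* to *Mid1ip1* reads was -1.13, -1.02 and -1.45 in AdLacZ and 0.75, 0.72 and 0.48 in Ad*Lmo3* libraries. Reads of *Mid1ip1* outnumbered those of *Thrsp* in every control library and were outnumbered in every Ad*Lmo3* library, and the same held per kb of transcript (61.2 to 72.1 against 40.6 to 52.3, and 57.5 to 62.2 against 137 to 155 CPM per kb). The mean ratio differed by 1.85 (exact permutation test, two-sided p = 0.1, the smallest that 3 against 3 libraries can give). None of the 4 ratios tested in this way can pass 0.05, and the adjusted p over the 4 was 0.2.

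*Fasn*, which encodes the multifunctional enzyme that assembles palmitate, took the most reads of the pathway. It was at 1428, 1358 and 1296 CPM in the controls and reached 2453, 3006 and 3754 CPM with Ad*Lmo3*. The lowest Ad*Lmo3* library was well above the highest control, and the spread within Ad*Lmo3* was wide, with means of 1361 ± 65.8 and 3071 ± 653 CPM (SD, n = 3 each). This rise of 1.17 on the log2 scale (SE 0.147, edgeR adjusted p = 0.00686) was a fold of 2.26 with a 95% interval of 1.79 to 2.85. Without AdLacZ replicate 3 the adjusted p was 0.0558 at a log2 fold change of 1.14, and *Fasn* kept its call in the other 11 settings. *Fasn* (ENSMUSG00000025153) lies on chromosome 11 from 120805846 to 120824547 on the minus strand and shares no read-length stretch with other transcripts.

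*Acly*, which supplies the cytosolic acetyl-CoA, was at 559, 522 and 531 CPM in the AdLacZ libraries and at 629.9, 826 and 997 CPM in the Ad*Lmo3* libraries. The groups did not overlap, and again the Ad*Lmo3* libraries were spread over a wide range while the controls lay close together. The fold was 1.52 with a 95% interval of 1.20 to 1.93 (adjusted p = 0.0644, edgeR). *Acly* passed the threshold without Ad*Lmo3* replicate 1 (adjusted p = 0.00845), with no filter on low counts (0.0222) and in DESeq2 (0.000423). The log2 ratio of *Fasn* to *Acly* varied little within each group, as it was 1.35, 1.38 and 1.29 in AdLacZ and 1.96, 1.86 and 1.91 in Ad*Lmo3* libraries. The ratio therefore had an SD of at most 0.0491, and its mean was 0.57 higher in Ad*Lmo3* libraries (exact permutation test, two-sided p = 0.1, adjusted 0.2).

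*Slc25a1*, the citrate carrier, was at 242, 318 and 278 CPM in the controls and 341, 396 and 346 CPM with Ad*Lmo3*. The coefficient of variation of the controls was 13.5%, and the highest control came near the lowest Ad*Lmo3* library. The fold was 1.29 (95% interval 1.08 to 1.54, adjusted p = 0.108, edgeR), and DESeq2 called it (adjusted p = 0.0178).

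*Me1* was at 210.1, 207 and 219 CPM in the controls and 235, 246 and 248 CPM with Ad*Lmo3*. The groups were close but apart, and the fold was the smallest of the 6 genes without overlap, at 1.15 (95% interval 1.04 to 1.27, adjusted p = 0.127, edgeR). Of the read-length stretches of its principal transcript 23.6% also occur in other transcripts, among them the processed pseudogenes *Gm7049* and *Gm7329*, and the counts of *Me1* carry that uncertainty.

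The carboxylases exist in a cytosolic form, ACC1, which feeds fatty acid synthesis, and a mitochondrial form, ACC2, whose malonyl-CoA restrains fatty acid oxidation. *Acaca* (ACC1) was at 166, 165 and 169.6 CPM in the controls and 196, 199.7 and 278 CPM with Ad*Lmo3*. Ad*Lmo3* replicate 3 stood above the other two. The log2 fold change of *Acaca* was 0.43 (adjusted p = 0.112 in edgeR and 0.0138 in DESeq2), and 0.25 without that library. *Acacb* (ACC2) was at 73.1, 72.0 and 59.6 CPM in the controls and 73.0, 67.7 and 84.3 CPM with Ad*Lmo3*. These groups overlapped, and the fold of *Acacb* was 1.10 with a 95% interval of 0.927 to 1.30 (adjusted p = 0.535, edgeR). The log2 ratio of *Acaca* to *Acacb* was 1.30 ± 0.185 in AdLacZ and 1.57 ± 0.147 in Ad*Lmo3* libraries (SD, n = 3 each), and its groups overlapped (exact permutation test, two-sided p = 0.2). In *Acaca* 47.4% of the read-length stretches of the principal transcript also occur in *Gm5182*, a processed pseudogene on chromosome 12, and the counting cannot assign such reads with certainty.

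The transcription factors of the pathway did not pass the threshold. *Srebf1* was at 190.4, 188 and 209.6 CPM in the controls and 184, 226 and 268 CPM with Ad*Lmo3*. Ad*Lmo3* replicate 1 was below every control and replicate 3 above every control. The fold of *Srebf1* was 1.15 (95% interval 0.941 to 1.42, adjusted p = 0.414, edgeR). The gene has several promoters, for SREBP1a and SREBP1c, and counts per gene do not separate them. *Mlxipl* had few reads, at 5.03, 5.99 and 3.72 CPM in the controls and 6.59, 5.57 and 6.96 CPM with Ad*Lmo3*, from 126 to 244 counts each. Its groups overlapped and its fold was 1.29 (95% interval 0.956 to 1.75, adjusted p = 0.321, edgeR), an interval that a change of the size of *Fasn* or *Thrsp* lies outside of. The α and β forms of ChREBP are not separated either.

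**Figure D2:**
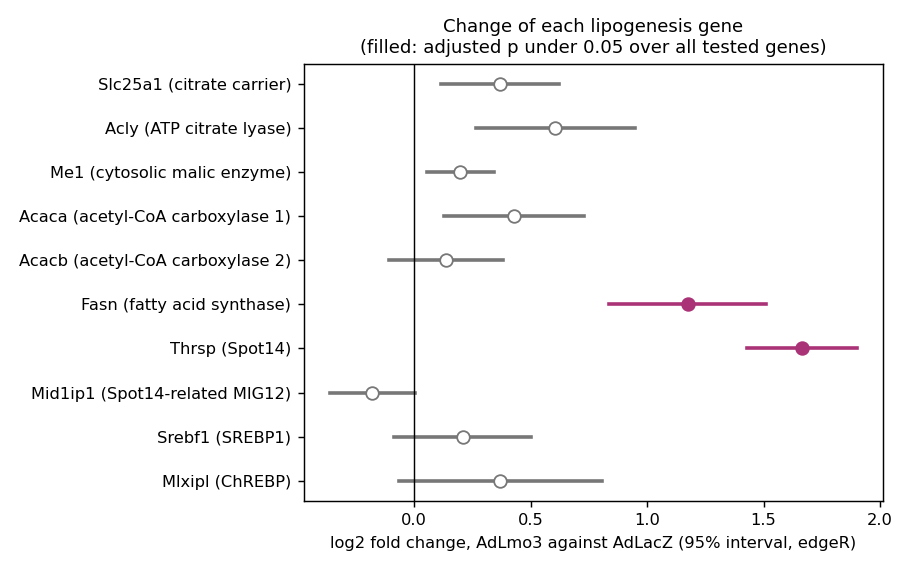
Log2 fold change of each lipogenesis gene in Ad*Lmo3* against AdLacZ libraries with its 95% interval from edgeR, in the order of the pathway. Filled points mark *Fasn* (1.17) and *Thrsp* (1.66), which had an adjusted p-value under 0.05. The intervals of *Acacb*, *Mid1ip1*, *Srebf1* and *Mlxipl* include 0.

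Per kb of the principal transcript, the order of the genes changed between the groups. In AdLacZ libraries *Slc25a1* had the highest level (168 CPM per kb, from 145 to 191), followed by *Fasn* (135, from 129 to 142) and *Acly* (122, from 119 to 127). *Mid1ip1* (67.7, from 61.2 to 72.1) and *Me1* (64.5, from 62.9 to 66.5) came next and did not differ beyond their spread, and neither did *Thrsp* (46.9, from 40.6 to 52.3) and *Srebf1* (45.6, from 43.7 to 48.8). *Acaca* (17.5 CPM per kb), *Acacb* (7.76) and *Mlxipl* (1.36) were lower, each with a range apart from its neighbours. In Ad*Lmo3* libraries *Fasn* was first, at 306 CPM per kb (from 244 to 374), above *Slc25a1* (217, from 205 to 238). *Acly* (186, from 143 to 227) overlapped with *Slc25a1* and with *Thrsp*, which had moved up to the fourth place at 149 CPM per kb (from 137 to 155). *Me1* (73.9), *Mid1ip1* (59.8) and *Srebf1* (52.6) followed, the last 2 with overlapping ranges. *Acaca* has exons in GENCODE far beyond its principal transcript, and per kb of all exons its level was 9.77 in place of 17.5 CPM in the AdLacZ libraries. On that scale *Thrsp* (27.3) lay below *Srebf1* (34.8) in AdLacZ, and the first place there was not set, as *Slc25a1* (129) and *Fasn* (124) had overlapping ranges.

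**Figure D3:**
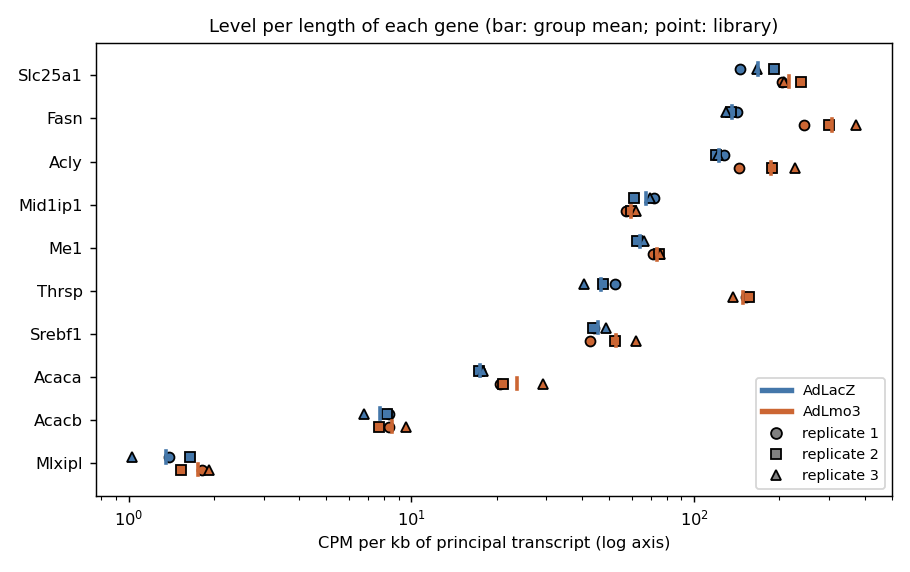
Level of each lipogenesis gene per kb of its principal transcript (CPM per kb, log axis), with 1 point per library and a bar at the group mean. By the group means *Fasn* moves from the second to the first place and *Thrsp* from the sixth to the fourth, while *Acaca*, *Acacb* and *Mlxipl* keep the lowest places in both groups. The ranges of *Thrsp* overlap with those of *Srebf1* in AdLacZ and of *Acly* in Ad*Lmo3* libraries.

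All 10 genes together took 0.302% to 0.321% of the gene counts in AdLacZ and 0.436% to 0.606% in Ad*Lmo3* libraries. *Fasn* made up 43.8% to 46.3% of these reads in AdLacZ and 55.4% to 59.7% in Ad*Lmo3* libraries. Within the Ad*Lmo3* group the libraries were not alike. Replicate 3 had the highest level of 8 of the 10 genes and replicate 1 of 0. Over all tested genes replicate 3 was the highest for 36.3% and replicate 1 for 33.9%. Levels rose in the order of replicates 1, 2 and 3 for 6 of the 10 genes, against 20.8% of all tested genes. *Acly*, *Acaca*, *Fasn* and *Srebf1* had a coefficient of variation of 18.6% to 22.5% within Ad*Lmo3*, and of 1.50% to 6.08% within AdLacZ. Among the 4627 tested genes with a mean of at least 50 CPM, the median coefficient was 5.74% in Ad*Lmo3* and 5.95% in AdLacZ libraries, and 6.05% of them exceeded 18% in Ad*Lmo3* libraries. Ad*Lmo3* replicate 3 also had the fewest gene counts (28035639), the largest share of reads in no gene (8.94%), the highest sum of adipocyte markers (33778 CPM, against 27167 and 31768) and the lowest sum of preadipocyte and fibroblast markers (15363 CPM, against 22982 and 20914). The last sum was mostly *Col3a1* and *Col1a1*, which were lowest in replicate 3 among the Ad*Lmo3* libraries. The same held for *Dlk1*, *Pdgfra*, *Gata2* and *Thy1* of that list. In contrast, *Ly6a*, *Gata3* and *Cd34* were highest in replicate 3, and *Pdgfrb* lay between the other Ad*Lmo3* libraries. The part of these differences in the spread of the lipogenesis genes was not tested. Without Ad*Lmo3* replicate 3 the log2 fold changes of *Fasn* and *Thrsp* were 1.00 and 1.72, and both kept their call.

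**Figure D4:**
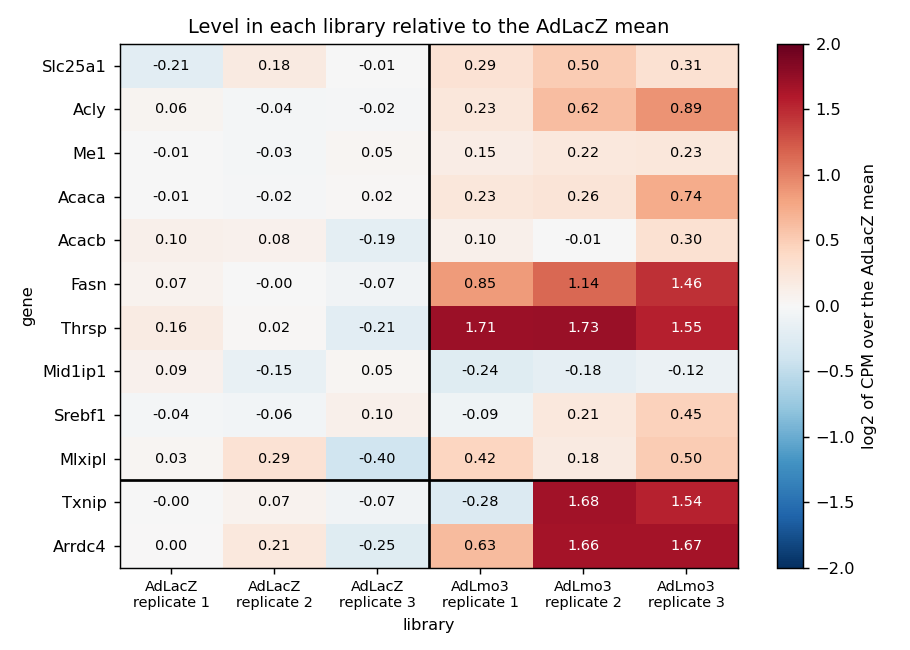
Log2 level of each lipogenesis gene and of *Txnip* and *Arrdc4* in every library, relative to the mean of the AdLacZ libraries. In Ad*Lmo3* libraries *Fasn* goes from 0.85 to 1.46 and *Thrsp* from 1.55 to 1.73, and *Txnip* is at -0.28 in replicate 1 and at 1.68 and 1.54 in replicates 2 and 3.

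The wider pathway was read from 8 further lists of genes, also chosen with earlier results of these data known. In them 12 of 76 tested genes were significantly higher and 3 lower in Ad*Lmo3* libraries. Of all tested genes, 2.71% were called higher and 1.57% lower. *Scd1* and *Scd3* kept their call in 12 of 12 other settings. The other 13 calls were lost when at least 1 single library was left out, so that between 1 (without AdLacZ replicate 3) and 15 (without Ad*Lmo3* replicate 1) genes were called higher. The counts of higher genes were 6 and 4 without AdLacZ replicates 1 and 2, and 2 and 4 without Ad*Lmo3* replicates 2 and 3.

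Of 10 genes that supply acetyl-CoA and citrate, all 10 had a positive estimate (median log2 fold change 0.32) and 4 rose, against 50.4% and 2.71% of all tested genes. *Pcx*, which encodes the pyruvate carboxylase that replenishes oxaloacetate, rose from 1470.0 ± 3.86 to 2101 ± 126 CPM (SD, n = 3 each; log2 fold change 0.52, adjusted p = 0.0122, edgeR). *Acss2*, which makes cytosolic acetyl-CoA from acetate, was at 136, 132 and 116 CPM in the controls and 165, 208 and 233 CPM with Ad*Lmo3* (log2 fold change 0.66, adjusted p = 0.0287, edgeR). *Aco1* (0.41) and the mitochondrial pyruvate carrier gene *Mpc2* (0.37) were the others, and with library totals alone *Mpc2* did not pass (edgeR adjusted p = 0.0769). Of 9 genes of NADPH supply, none passed the threshold, where 4.28% of all tested genes did. *G6pdx*, the entry enzyme of the pentose phosphate path, was at 172 ± 11.7 and 190 ± 22.3 CPM (SD, n = 3 each, edgeR adjusted p = 0.478).

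Of 12 tested genes that use palmitate and malonyl-CoA, 3 were called higher and 2 lower, against 2.71% and 1.57% of all tested genes. The median log2 fold change of this list was 0.08. *Scd1*, the Δ9 desaturase that turns stearate into oleate, was at 17770.3, 20136 and 18333 CPM in the controls and 36102, 40829 and 42979 CPM with Ad*Lmo3*. The groups were far apart, and *Scd1* rose by 1.09 on the log2 scale (SE 0.115, edgeR adjusted p = 0.00352). *Scd3*, another desaturase gene, fell by 0.81 on the log2 scale, from 17.7 ± 1.40 to 10.1 ± 0.726 CPM (SD, n = 3 each; adjusted p = 0.00674, edgeR), and 3.20% of its read-length stretches are shared, with *Scd1* among others. *Elovl6*, which elongates palmitate to stearate, fell by 0.58 (34.4, 25.4 and 29.9 CPM in the controls, 19.6, 19.9 and 20.5 CPM with Ad*Lmo3*; adjusted p = 0.0275, edgeR). *Acsl1* and *Fads2* rose by 0.57 and 0.42, and with library totals alone *Fads2* did not pass (edgeR adjusted p = 0.0563).

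Of 9 tested genes for SREBP processing and its partners, 0 were called higher and 1 lower, against 2.71% and 1.57% of all tested genes. The gene called lower was the upstream stimulatory factor gene *Usf1* (-0.27, adjusted p = 0.0429, edgeR, and 0.0534 with no filter on low counts). *Scap*, the escort of SREBP, was at 86.6 ± 3.04 and 87.6 ± 3.93 CPM, and *Srebf2* at 168 ± 9.63 and 173 ± 10.4 CPM (SD, n = 3 each). *Insig1*, an SREBP target that retains it in the ER, was at 504, 422 and 439 CPM in the controls and 505, 652 and 649.8 CPM with Ad*Lmo3* (adjusted p = 0.10, edgeR). Of 14 tested genes of cholesterol synthesis, which SREBP2 controls, 12 had a positive estimate (median 0.22), against 50.4% of all tested genes. Among them *Mvd*, a gene of the mevalonate pathway, rose by 0.56.

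Around ChREBP all 6 tested genes had a positive estimate (median 0.46) and 2 rose, beside the same shares of 50.4% and 2.71% over all tested genes. Its dimer partner *Mlx* (adjusted p = 0.663) and the related *Mlxip* (adjusted p = 0.358, both edgeR) did not pass. *Txnip* and *Arrdc4* are arrestin genes induced by glucose through this family of factors. *Txnip* was at 253, 265 and 242 CPM in AdLacZ, at 209 CPM in Ad*Lmo3* replicate 1 and at 811 and 737 CPM in Ad*Lmo3* replicates 2 and 3. Ad*Lmo3* replicate 1 was thus below the controls and the other libraries far above, and *Txnip* did not pass (1.21 on the log2 scale with an SE of 0.413, edgeR adjusted p = 0.148). It shares 13.8% of its read-length stretches with *Gm15441*, and *Mlx*, *Usf1* and *G6pdx* share 10.6% to 14.2% with other genes. *Arrdc4* was at 9.78, 11.3 and 8.23 CPM in the controls and 15.1, 30.8 and 31.1 CPM with Ad*Lmo3*, a rise of 1.39 (adjusted p = 0.0287, edgeR). *Gpd1*, the other gene of the list that rose (0.53), links glycolysis to glycerol. *Pklr*, a classical ChREBP target in liver, had at most 2 counts in a library.

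Among 7 genes of the LXR and thyroid hormone receptors, their partner RXRα and coactivators, *Nr1h3*, which encodes the oxysterol receptor LXRα, an activator of *Srebf1*, rose by 0.39 (97.4 ± 7.88 and 127 ± 7.66 CPM, SD, n = 3 each; adjusted p = 0.0405, edgeR, and 0.0639 with library totals alone), and the others did not pass. None of 9 genes of AMP-activated kinase and its activators, which restrain ACC, passed the threshold, where 4.28% of all tested genes did. The catalytic subunit gene of this kinase, *Prkaa2*, was at 19.5 ± 2.67 and 14.7 ± 0.749 CPM (SD, n = 3 each, edgeR adjusted p = 0.0918).

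The 10 adipocyte markers all had a positive estimate (median log2 fold change 0.59) and 8 of them rose, against 50.4% and 2.71% of all tested genes. Of 10 preadipocyte and fibroblast markers 0 were called in either direction (median 0.09), against 4.28% of all tested genes. Beside that adipocyte median, *Thrsp* (1.66) and *Fasn* (1.17) were above it, *Acly* (0.61) was close to it and the other 7 lipogenesis genes were below. Whether the lipogenesis genes changed apart from the adipocyte genes was not tested. The genes whose profile over the 6 libraries was most like that of *Fasn*, by the root mean square difference of centred log2 CPM, were *Vnn3* (0.0793), *Adipoq* (0.0850), *A530016L24Rik* (0.0956), *B3galt2* (0.0991) and *Ces1d* (0.112). *Acly* was 119th and *Thrsp* 255th in this order, and *Mid1ip1* 9629th.

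**Figure D5:**
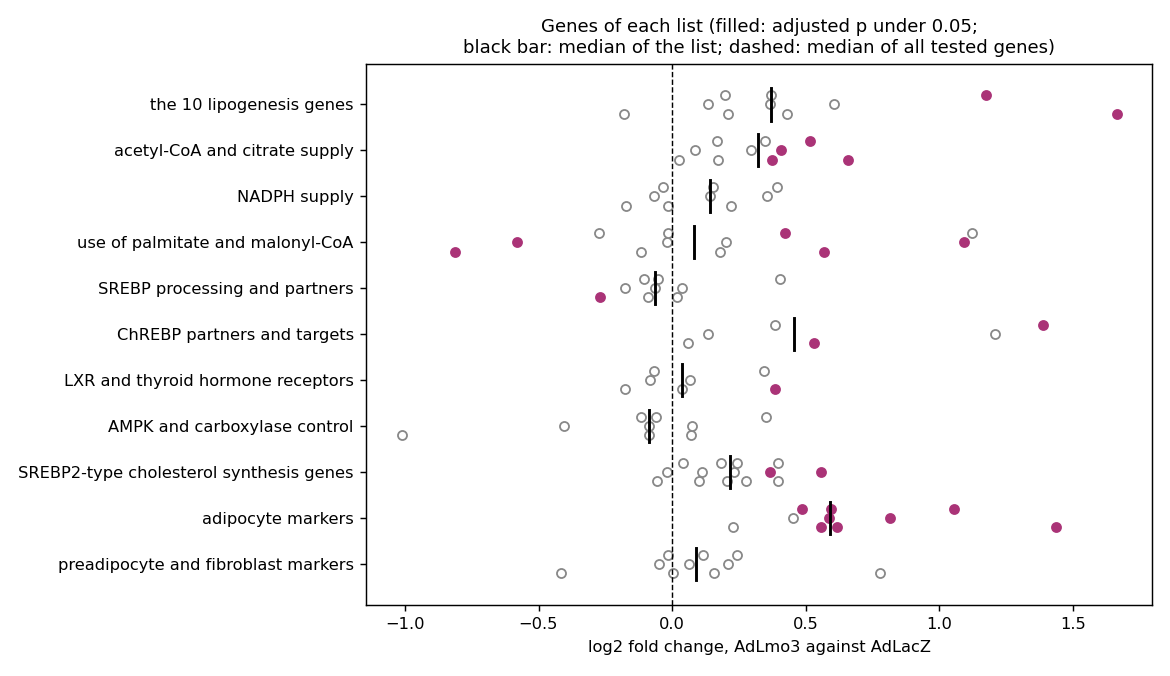
Log2 fold change (Ad*Lmo3* against AdLacZ) of the genes of each list, with filled points for an adjusted p-value under 0.05 and a black bar at the median of the list. The medians of the 10 lipogenesis genes (0.37), of the acetyl-CoA and citrate supply (0.32), of the ChREBP list (0.46) and of the adipocyte markers (0.59) lie above the median of all tested genes (0.00, dashed). The other lists shown also lie above it, from 0.04 to 0.22, except SREBP processing (-0.06) and AMP-activated kinase (-0.09).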

How the data were processed

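RNA-Seq libraries of 3 AdLacZ and 3 Ad*Lmo3* infections were analysed, grouped by their labels. Per the labels and methods, the authors sequenced 75 bp single reads, mapped them with STAR (2.5.0b in the submitters' processing notes) to mm10, and deposited raw counts of reads per gene symbol. The counting program, its strand setting and the annotation are not given in the sources used here. The last lines of each table, reads in no gene (7.15% to 8.94%) or in several genes (0.476% to 0.543%), were left out.

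Genes were tested with edgeR 4.0.16 under R 4.3.3, after filterByExpr and TMM scaling, by the quasi-likelihood test without a replicate block. The study used DESeq2 (1.6.3), which was run as an alternative (1.42.0). Other alternatives were RLE factors, library totals, other count filters, the replicate block and leaving out each library. A count of 3, the detection floor, was 0.0768 to 0.111 CPM, and covers counting error only. Libraries came from separate infections per the design text of the series. Chi-square values per degree of freedom of 24.0 to 64.0 showed that no replicates were the same library. The scripts were tested on simulated data. Gene positions and read-length stretches came from GENCODE M21 (GRCm38), and promoters of 10 of the 10 genes from RefSeq (GRCm38.p6). Named genes were the 10 genes, the called genes of each list with the smallest adjusted p (at most 4), *Srebf2*, *Scap*, *Insig1*, *Mlx*, *Mlxip*, *Txnip*, *Nr1h3*, *Scd1*, *Elovl6*, *G6pdx*, *Acss2*, *Prkaa2*, the markers and the 5 genes most like *Fasn*. *Pklr*, *Gm5182*, *Gm7049*, *Gm7329*, *Gm15441* and *Gm14493* were named after their values or overlaps were seen. Some genes that the rule names are not reported here. The genes, lists and motifs were chosen with earlier results of these data known, and *Spring1* matched no symbol. Of 8 hepatocyte markers, 1 was tested and none was called.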

Additional observations from a re-analysis of the deposited data

How the results depend on the processing

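*Thrsp* and *Fasn* were the lipogenesis genes called with RLE factors, with library totals and with a filter of 1 CPM. No lipogenesis gene changed sign in any of 12 settings. With DESeq2, 5 were called (*Acaca*, *Acly*, *Fasn*, *Slc25a1* and *Thrsp*), against 5.19% of its tested genes called higher; it called 1104 of all genes (671 higher, 433 lower, against 547, 346 and 201) and 21 in place of 12 higher in the pathway lists. Library totals gave 266 higher and 501 lower genes and moved the median log2 fold change of all genes from 0.00 to -0.07. The cause of these differences was not tested. Leaving out single libraries gave 77 to 501 called genes (55 to 354 higher, 22 to 147 lower), 1 to 3 higher lipogenesis genes and 0 lower, and 1 to 15 higher and 1 to 2 lower pathway genes. The lowest counts came without AdLacZ replicate 3. The log2 ratio of *Srebf1* to *Mlxipl* (-0.20, groups overlapping) was 0.033 without AdLacZ replicate 3, and was lowest at -0.39. The ratios of *Thrsp* to *Mid1ip1*, *Acaca* to *Acacb* and *Fasn* to *Acly* ranged from 1.72 to 1.93, 0.20 to 0.38 and 0.55 to 0.60.

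The groups share replicate numbers, but the deviations of same-numbered libraries correlated by 0.0508, 0.225 and 0.234 across genes, not all above 0.1, and Ad*Lmo3* replicate 1 correlated best with AdLacZ replicate 2 (0.175). The numbers were not taken as pairs. With the replicate block 498 genes were called (348 higher, 150 lower), 3 higher lipogenesis genes (*Slc25a1* was added, edgeR adjusted p = 0.0456) and 11 higher and 2 lower pathway genes. The block lost the calls of *Acss2* (0.0537), *Mpc2* (0.0572), *Fads2* and *Usf1* (both 0.0646, edgeR adjusted p). A block leaves the ratios unchanged (1.85 for *Thrsp* to *Mid1ip1*).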
